A study of Mus musculus with 24 samples.

Results

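Transcript levels of 8 genes of the granulocyte and monocyte precursor program (Mpo, Elane, Prtn3, Ctsg, Ms4a3, Ly6c2, Nkg7 and Fcgr3) are described here across mouse blood stem and progenitor cells of 2 ages. They were chosen as a list of gene symbols with earlier results of these data known. Shares over all tested genes are therefore given beside counts as a description and not as a test of the list. All 8 were found among the 24421 gene lines of the count table. All 8 passed the filter on low counts, which kept 14205 genes. The 6 groups were aged LT-HSC, young LT-HSC, aged ST-HSC, young ST-HSC, aged MPP and young MPP, with 4 bulk RNA-seq libraries each and 24 in all. Aged animals were 107 weeks old and young animals 12 weeks old, and all were male C57BL/6 mice with no genotype or treatment given beyond strain and age. All cells came from marrow enriched for the Kit receptor (CD117) and from its LSK fraction, which lacks lineage markers and carries Sca1 and Kit. The gate for long-term stem cells (LT-HSC) was CD150+ CD48-, that for short-term stem cells (ST-HSC) CD150- CD48-, and that for multipotent progenitors (MPP) CD150- CD48+. The labels count 4 mice per age without linking a library to a mouse, so p-values measure the spread between these libraries.

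Neutrophils and monocytes arise in the marrow from multipotent progenitors by way of granulocyte-monocyte progenitors, and the first granules they fill are the primary (azurophil) granules. Mpo encodes myeloperoxidase, which makes hypochlorous acid from hydrogen peroxide and chloride, and Elane, Prtn3 and Ctsg encode the serine proteases neutrophil elastase, proteinase 3 and cathepsin G of the same granules. Ms4a3 is a membrane protein used in the mouse to mark granulocyte-monocyte progenitors, and Ly6c2 encodes part of the Ly6C antigen of monocytes and their precursors. Fcgr3 is the low-affinity IgG receptor CD16, which together with Fcgr2b is stained to define granulocyte-monocyte progenitors, and Nkg7 encodes a granule membrane protein best known from cytotoxic lymphocytes. Secondary and tertiary granule genes such as Ltf, Camp and Lcn2 are used later, in maturing neutrophils.

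Elane and Prtn3 are neighbours on the forward strand of chromosome 10 in RefSeq's GRCm38.p6 annotation, Prtn3 at chr10:79879667-79883174 and Elane at chr10:79886312-79888216, with 3137 bases between them. Mpo lies at chr11:87793784-87804412, Ctsg at chr14:56099885-56102574, Ms4a3 at chr19:11629499-11640851, Ly6c2 at chr15:75108161-75112066, Nkg7 at chr7:43437138-43438246 and Fcgr3 at chr1:171051169-171065915. The 250 bases before the annotated starts of Elane (chr10:79886062-79886311, forward strand), Prtn3 (chr10:79879417-79879666, forward strand) and Ctsg (chr14:56102575-56102824, reverse strand) are shown because these protease genes varied together between libraries while Prtn3, alone of the 3, kept at least 14.5 CPM in every library. Sequences are RefSeq's, build GRCm38.p6, and capitals mark the letters GAGGAAGT (a PU.1 motif) and CAACNG (a MYB motif) on either strand.
Elane: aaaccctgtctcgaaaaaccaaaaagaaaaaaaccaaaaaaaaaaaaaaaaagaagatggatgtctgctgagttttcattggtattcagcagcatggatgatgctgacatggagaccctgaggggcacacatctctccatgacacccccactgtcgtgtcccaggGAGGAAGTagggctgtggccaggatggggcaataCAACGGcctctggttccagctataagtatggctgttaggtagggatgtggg
Prtn3: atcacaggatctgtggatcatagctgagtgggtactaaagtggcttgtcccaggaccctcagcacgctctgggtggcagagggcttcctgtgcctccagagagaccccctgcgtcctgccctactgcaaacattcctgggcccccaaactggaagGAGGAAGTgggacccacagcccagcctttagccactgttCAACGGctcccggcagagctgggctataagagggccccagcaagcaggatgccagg
Ctsg: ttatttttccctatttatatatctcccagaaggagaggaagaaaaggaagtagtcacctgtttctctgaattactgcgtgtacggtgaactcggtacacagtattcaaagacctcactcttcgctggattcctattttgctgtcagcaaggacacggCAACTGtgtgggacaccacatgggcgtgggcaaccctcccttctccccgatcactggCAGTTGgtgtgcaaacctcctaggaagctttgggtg
Elane and Prtn3 each held one GAGGAAGT, 85 and 95 bases before the start, followed by one CAACNG at 51 and 56 bases. Ctsg held CAACNG at 93 and 36 bases before its start and no GAGGAAGT in this window. Over all 8 genes GAGGAAGT was found in 4 windows (Mpo, Elane, Prtn3 and Ly6c2), against 2.44% of 27025 RefSeq promoter windows of the same length. The letters CAACNG were found in 5 windows against 29.3% of all, TGTGGT (a RUNX motif) in 3 against 14.2%, and TTGCNNAA (a C/EBP motif) in 1, that of Fcgr3, against 9.55%. The motifs were searched on both strands, and no GAGGAAGT match overlapped a CAACNG match. Each window precedes the first listed start of its gene, which need not be the end of the span given above. The Fcgr3 window (chr1:171059404-171059653, reverse strand) lies inside the Fcgr3 span. That of Ly6c2 (chr15:75111972-75112221, reverse strand) partly overlaps the Ly6c2 span.

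Library totals ran from 7307151 to 12946550 counts. Levels are given as CPM, the library-size-scaled read count after TMM normalisation. Changes are log2 differences, tested in edgeR by quasi-likelihood with p-values adjusted by Benjamini-Hochberg over 14205 genes, and a gene was called when the adjusted p was under 0.05. The transcript of Cd48, whose protein was gated on, was highest in MPP, with 83.0 to 97.7 CPM in aged MPP, 62.9 to 69.9 CPM in young MPP and at most 3.54 CPM in any LT-HSC library. Several libraries stood apart in the 8 genes. Young LT-HSC library 1 was the highest of its group for 8 of 8 genes, aged MPP library 2 the lowest of its group for 8 of 8, and aged ST-HSC library 4 the lowest of its group for 7 of 8. Aged ST-HSC library 2 had the highest share of secondary and tertiary granule genes of its group, at 0.189% of counts against at most 0.0530% in the other 3. Because these are sorted pools, a smaller number of cells of one type and less RNA per cell cannot be told apart.

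**Figure D1:**
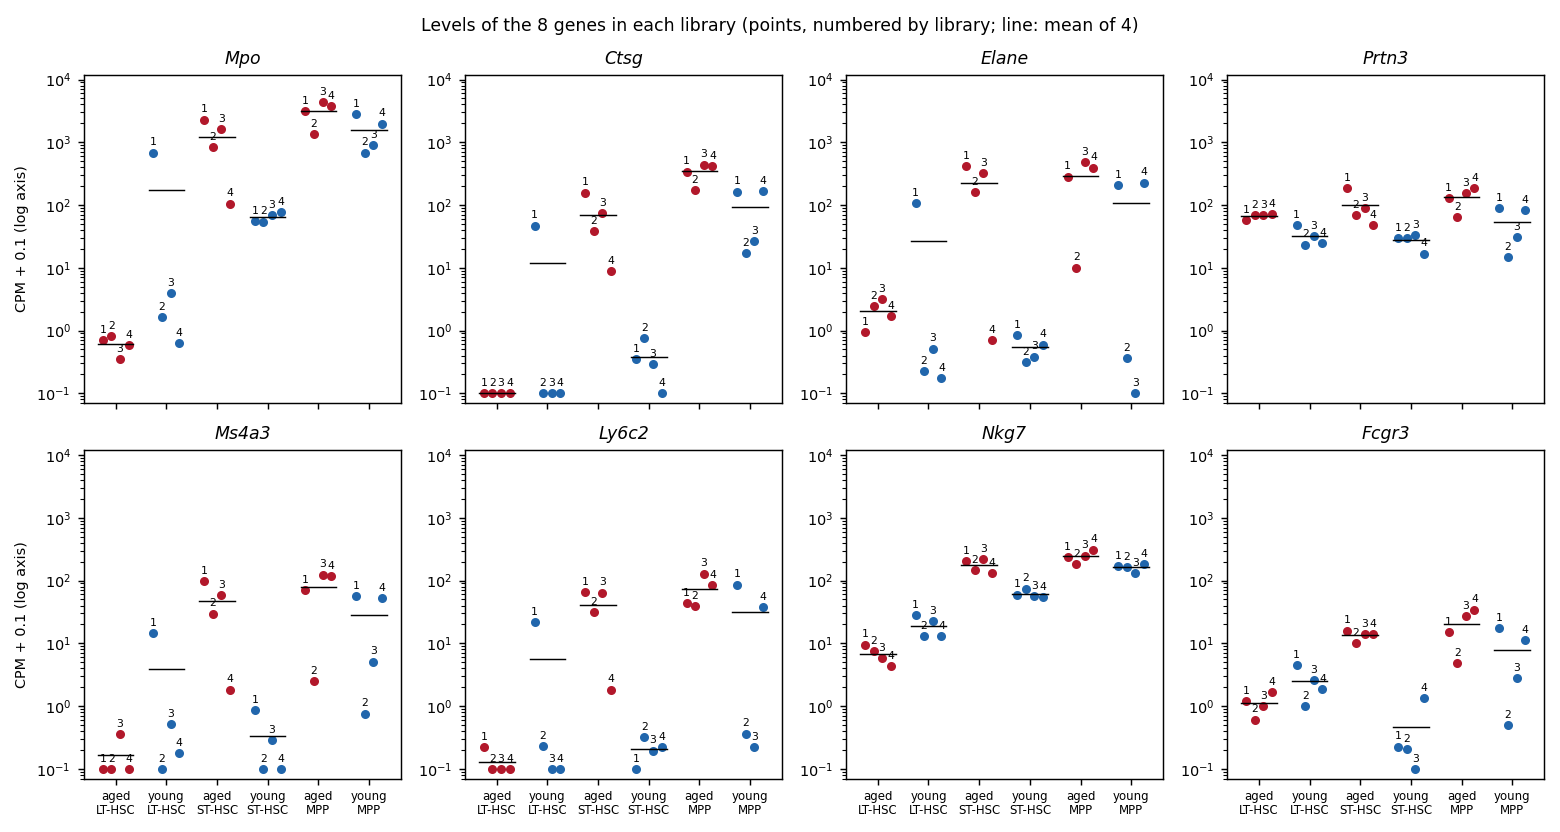
Level of each of the 8 genes (CPM + 0.1, log axis) in the 24 libraries; points are libraries, numbered within their group, red for aged and blue for young, and lines are means of 4. Young LT-HSC library 1 sits far above its group mates for Mpo, at 682 CPM, and aged ST-HSC library 4 sits at the young level for Elane, at 0.610 CPM.

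In ST-HSC all 8 genes had a higher mean in aged than in young ST-HSC, and 6 of the 8 rose past the threshold (Ctsg, Prtn3, Ms4a3, Ly6c2, Nkg7 and Fcgr3), where 3.58% of all tested genes were called higher, 2.21% lower and 5.79% in either direction. Mpo and Elane, which had large mean differences, missed the threshold. For 7 of 8 genes every aged ST-HSC library lay above every young one, the exception being Elane, and 5.94% of all tested genes showed that separation.

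Among the granule genes, Mpo was measured at 2290, 842, 1630 and 105 CPM in aged ST-HSC libraries 1 to 4, against 55.0, 54.5, 68.4 and 77.8 CPM in young ST-HSC. All 4 aged values were above the young ones, library 4 by little, and the log2 change of 4.25 (SE 1.38) had an edgeR adjusted p of 0.0791. Elane was at 411, 162, 319 and 0.610 CPM in aged ST-HSC, against 0.751, 0.218, 0.284 and 0.498 CPM in young ST-HSC. Thus 3 aged libraries held abundant Elane transcript and the fourth was within the young range, and the log2 change of 9.01 (SE 2.62) had an edgeR adjusted p of 0.0503. Ctsg was at 157, 38.4, 73.7 and 8.64 CPM in aged ST-HSC, against 0.250, 0.655, 0.189 and 0 CPM in young ST-HSC. It rose by 7.90 (SE 2.04, edgeR adjusted p = 0.0333), and library 4 was again the lowest of the aged group. Prtn3 was at 188, 69.4, 90.0 and 47.6 CPM in aged ST-HSC, against 29.6, 29.9, 32.9 and 16.7 CPM in young ST-HSC. Prtn3 had a clear base level in young ST-HSC, unlike Elane and Ctsg, and its rise was correspondingly smaller at 1.86 (SE 0.50, edgeR adjusted p = 0.0343).

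The precursor surface markers followed the same libraries. Ms4a3 was at 97.6, 29.7, 59.0 and 1.73 CPM in aged ST-HSC, against 0.751, 0, 0.189 and 0 CPM in young ST-HSC, a log2 rise of 7.63 (SE 2.01, edgeR adjusted p = 0.0309). Ly6c2 was at 64.4, 31.1, 64.3 and 1.73 CPM in aged ST-HSC, against 0, 0.218, 0.0947 and 0.124 CPM in young ST-HSC, a rise of 8.33 (SE 2.28, edgeR adjusted p = 0.0374). Both were low in aged library 4 yet above all young libraries. The counts behind the young values were small, 8 reads of Ms4a3 and 4 of Ly6c2 over the 4 libraries, so the size of these changes is loosely determined.

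For Nkg7 and Fcgr3, aged ST-HSC library 4 was close to the rest of its group. Nkg7 was at 203, 145, 219 and 131 CPM in aged ST-HSC, against 59.5, 74.1, 56.9 and 54.2 CPM in young ST-HSC, a log2 rise of 1.51 (SE 0.23, edgeR adjusted p = 0.000515). Fcgr3 was at 15.8, 9.98, 14.0 and 13.8 CPM in aged ST-HSC, against 0.125, 0.109, 0 and 1.24 CPM in young ST-HSC, a rise of 5.23 (SE 1.01, edgeR adjusted p = 0.00385). As shares of the aged MPP mean, aged ST-HSC library 4 reached 53.5% for Nkg7 and 68.3% for Fcgr3, with 36.1% for Prtn3, 3.33% for Mpo and 0.210% for Elane. The calls of Nkg7 and Fcgr3 held with any single library left out. Those of the other 4 genes did not: Ctsg lost its call without aged library 1 (adjusted p = 0.078) or 3 (0.051), Prtn3 without aged library 1 (0.13) or 3 (0.051), Ms4a3 without aged library 1 (0.066), and Ly6c2 without aged library 1 (0.067), 2 (0.052) or 3 (0.064). Leaving out any 1 of the 4 young libraries also ended these calls, at adjusted p from 0.082 to 0.098 for Ctsg, 0.069 to 0.099 for Prtn3, 0.063 to 0.09 for Ms4a3 and 0.09 to 0.1 for Ly6c2, while Elane passed without aged library 4 (0.035). With limma-voom in place of edgeR, Nkg7 was the one gene of the 8 called.

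**Figure D2:**
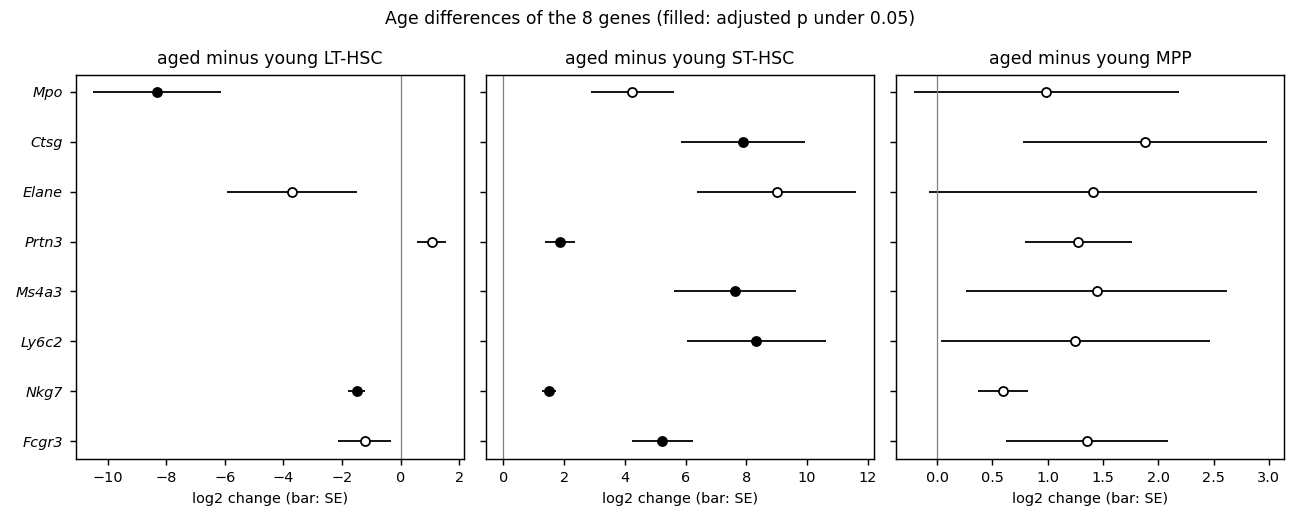
Log2 change, aged minus young, of each gene in each population (points; bars are standard errors; filled points have an edgeR adjusted p under 0.05). In ST-HSC all points lie right of 0 and 6 are filled, in LT-HSC Mpo and Nkg7 are filled to the left, and in MPP none is filled; Ctsg, Ms4a3 and Ly6c2 are not drawn for LT-HSC, where aged counts were 0 to 2.

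In LT-HSC, the most primitive population, 6 of the 8 genes were low in most libraries. Prtn3 and Nkg7 were at 4.27 CPM or more in all 8 LT-HSC libraries. The 2 called age differences were falls. Mpo and Nkg7 fell in aged LT-HSC, 2 of 8 genes, where 8.87% of all tested genes were called lower, 9.98% higher and 18.9% in either direction. The call of Mpo rested on 1 young library, and that of Nkg7 did not. Prtn3 was the one gene with a higher level in all 4 aged than in all 4 young LT-HSC libraries, a separation shown by 12.5% of tested genes, and did not pass the test. With only the groups compared in the fit, Prtn3 was called higher (1.05, edgeR adjusted p = 0.0026).

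Mpo was at 0.605, 0.711, 0.255 and 0.488 CPM in aged LT-HSC, against 682, 1.53, 3.86 and 0.533 CPM in young LT-HSC libraries 1 to 4. The log2 change was -8.31 (SE 2.19, edgeR adjusted p = 0.0118), and without young library 1 it was -1.80 (adjusted p = 0.6). Elane was at 0.847, 2.34, 3.06 and 1.59 CPM in aged LT-HSC, against 106, 0.128, 0.417 and 0.0761 CPM in young LT-HSC. Its change of -3.72 (SE 2.22, edgeR adjusted p = 0.271) turned to 3.23 without young library 1 (adjusted p = 0.68), since the aged values lay above the 3 remaining young ones. Ctsg had no read in any aged LT-HSC library, against 46.7, 0, 0 and 0 CPM in young LT-HSC, all 394 young reads being in library 1. Taking 3 counts over the aged group as its limit, summed Ctsg was at least 115-fold lower in aged LT-HSC, a difference carried by young library 1 alone. The remaining young libraries held no read, like the aged ones, and Ctsg was not called (edgeR adjusted p = 0.108). Prtn3 was at 56.7, 69.2, 68.6 and 70.7 CPM in aged LT-HSC, against 48.3, 23.2, 31.5 and 24.3 CPM in young LT-HSC, a change of 1.06 (SE 0.49, edgeR adjusted p = 0.148). Among Mpo, Elane, Ctsg and Prtn3, only Prtn3 was at 23.2 CPM or more in every LT-HSC library of both ages. Other primary granule genes, summed, took up 0.158% to 0.168% of counts in aged LT-HSC and 0.143% to 0.161% in young LT-HSC.

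Ms4a3 was at 0, 0, 0.255 and 0 CPM in aged LT-HSC, against 14.5, 0, 0.417 and 0.0761 CPM in young LT-HSC, and Ly6c2 at 0.121, 0, 0 and 0 CPM in aged LT-HSC, against 21.6, 0.128, 0 and 0 CPM in young LT-HSC. The aged groups held 2 reads of Ms4a3 and 1 of Ly6c2. The aged over young ratio was 0.0180 for Ms4a3 (exact Clopper-Pearson 95% interval 0.00215 to 0.0663) and 0.00624 for Ly6c2 (0.000157 to 0.0352), intervals that cover counting error only and not the one high young library. Nkg7 was at 9.44, 7.42, 5.74 and 4.27 CPM in aged LT-HSC, against 28.1, 12.9, 22.5 and 12.8 CPM in young LT-HSC, with no overlap, as for 9.62% of tested genes. It fell by 1.49 on the log2 scale (SE 0.29, edgeR adjusted p = 0.000993), and its call held with any single library left out. Fcgr3 was at 1.09, 0.508, 0.893 and 1.59 CPM in aged LT-HSC, against 4.39, 0.894, 2.50 and 1.75 CPM in young LT-HSC, a change of -1.23 (SE 0.91, edgeR adjusted p = 0.389).

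Young LT-HSC library 1 held the 8 genes above its group mates and under the young MPP mean. Relative to that mean it reached 97.0% for Elane, 88.9% for Prtn3, 69.9% for Ly6c2, 56.0% for Fcgr3, 50.7% for Ms4a3, 50.1% for Ctsg and 42.8% for Mpo, but 17.3% for Nkg7. The young MPP libraries behind the mean differed widely, with Elane at 210, 0.264, 0 and 227 CPM. In the same library the summed share of 13 LT-HSC marker genes was 0.547% of counts, above the 0.435% to 0.447% of the other young LT-HSC libraries, and Cd48 was at 0.356 CPM. Secondary and tertiary granule genes made up 0.00687% of its counts, against 0.00200% to 0.00279% in the other 3. The part of other cells in these values was not tested.

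In MPP all 8 genes had a higher mean in aged than in young libraries and none passed the test, where 5.53% of all tested genes were called higher, 4.27% lower and 9.79% in either direction. By unadjusted p, 2 of the 8 (Prtn3 and Nkg7) were under 0.05, limma-voom called 2 (Ctsg and Nkg7) and DESeq2 called 0. Markers of other cell types differed in the same libraries: B and plasma cell markers took up 0.201% to 0.912% of counts in aged MPP, against 0.0148% to 0.0464% in young MPP, with 7 of 14 called higher, and 4 of 10 dendritic cell markers were called higher. Their part in the values of the 8 genes was not tested. The spread was between libraries of one age. Elane was at 284, 9.96, 476 and 394 CPM in aged MPP, against 210, 0.264, 0 and 227 CPM in young MPP. So Elane was high in 3 aged and 2 young MPP libraries and low or absent in the others, and its change of 1.41 (SE 1.48) had an edgeR adjusted p of 0.625. Ms4a3 was at 69.7, 2.40, 124 and 116 CPM in aged MPP, against 55.7, 0.660, 4.99 and 53.1 CPM in young MPP, and Ly6c2 at 44.2, 38.6, 129 and 83.4 CPM in aged MPP, against 86.1, 0.264, 0.122 and 37.1 CPM in young MPP. Both were low in young libraries 2 and 3, and in aged library 2 Ms4a3 was low while Ly6c2 was not.

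Mpo stayed high in every MPP library, at 3120, 1340, 4400 and 3760 CPM in aged MPP, against 2820, 685, 893 and 1980 CPM in young MPP. The same held for Nkg7, at 237, 182, 250 and 310 CPM in aged MPP, against 169, 165, 133 and 183 CPM in young MPP (log2 change 0.59, SE 0.23, edgeR adjusted p = 0.105). Ctsg was at 341, 174, 441 and 415 CPM in aged MPP, against 163, 16.8, 26.8 and 166 CPM in young MPP. Ctsg was the one gene whose 4 aged values all exceeded the 4 young ones, a separation shown by 8.83% of tested genes, with a change of 1.88 (SE 1.10, edgeR adjusted p = 0.324). Prtn3 was at 127, 64.0, 153 and 184 CPM in aged MPP, against 88.9, 14.5, 30.9 and 83.1 CPM in young MPP (1.27, SE 0.48, edgeR adjusted p = 0.107). Fcgr3 was at 14.9, 4.80, 26.7 and 34.4 CPM in aged MPP, against 17.3, 0.396, 2.68 and 11.0 CPM in young MPP (1.36, SE 0.73, edgeR adjusted p = 0.272). For Prtn3 and Fcgr3 the lowest aged library fell within the young range.

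**Figure D3:**
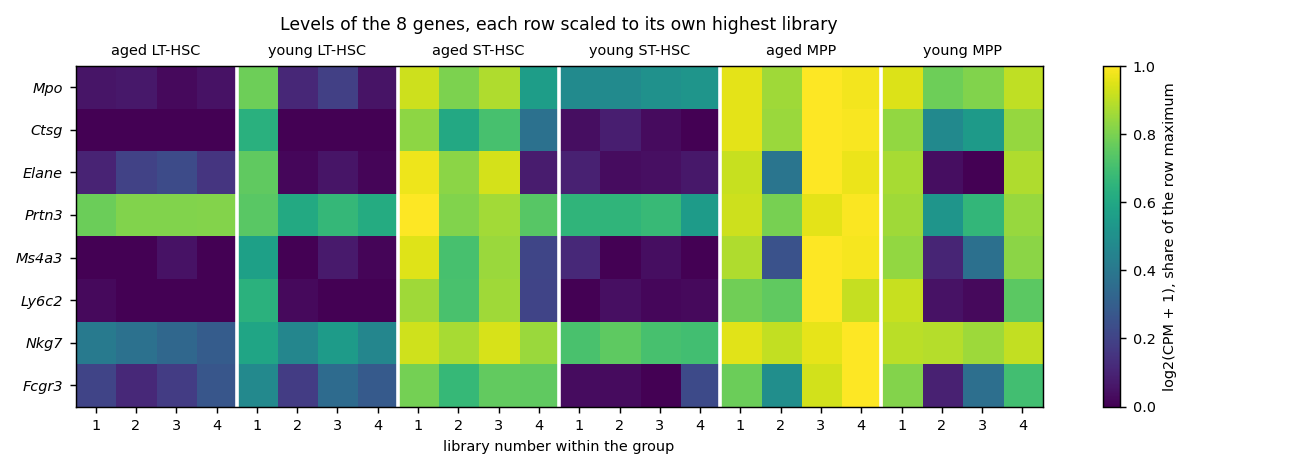
Levels of the 8 genes, log2(CPM + 1) divided by the highest library of each gene, in 24 libraries grouped by age and population. Library 1 of young LT-HSC and libraries 1 to 3 of aged ST-HSC are bright across the granule and surface marker genes, while Nkg7 changes in steps between groups, with a mean of 245 CPM in aged MPP and 6.72 CPM in aged LT-HSC.

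Set against the whole series, the order of group means began with aged MPP for all 8 genes. The group with the second highest mean was young MPP for Mpo (1590 ± 993 CPM) and Ctsg (92.9 ± 82.2 CPM), and aged ST-HSC for the other 6, with 223 ± 180 CPM for Elane, 98.7 ± 62.0 CPM for Prtn3 and 174 ± 43.2 CPM for Nkg7 (SD, n = 4 each). Between the first and the second group the ranges overlapped for 7 of 8 genes, the exception being Ctsg. The lowest mean was that of aged LT-HSC for Mpo (0.515 ± 0.196 CPM), Ctsg, Ms4a3, Ly6c2 and Nkg7 (6.72 ± 2.22 CPM), and that of young ST-HSC for Elane (0.438 ± 0.240 CPM), Prtn3 (27.3 ± 7.21 CPM) and Fcgr3 (0.370 ± 0.586 CPM). Further down the order neighbouring groups overlapped for all genes but Mpo, whose young ST-HSC libraries lay above all of aged LT-HSC, Elane, whose aged LT-HSC libraries lay above all of young ST-HSC, and Nkg7. Nkg7 had the most distinct steps: young MPP (162 ± 21.1 CPM), young ST-HSC (61.2 ± 8.91 CPM), young LT-HSC (19.1 ± 7.56 CPM) and aged LT-HSC followed each other without overlap (SD, n = 4 each).

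The populations were compared within each age. In aged cells ST-HSC exceeded LT-HSC for 7 of 8 genes, all but Prtn3, where 16.1% of tested genes were called higher, 16.2% lower and 32.3% in either direction. Aged MPP exceeded aged LT-HSC for 7 of 8, all but Prtn3 (28.5% called higher, 28.3% lower, 56.8% in either direction), and no gene passed between aged MPP and aged ST-HSC (14.4% higher, 15.5% lower, 29.9% in either direction). In that last comparison 1 gene, Nkg7, had an unadjusted p under 0.05, limma-voom called 3 (Mpo, Ctsg and Nkg7) and DESeq2 called 0. In young cells MPP exceeded ST-HSC for 7 of 8 genes, again all but Prtn3 (10.1% called higher, 10.5% lower, 20.6% in either direction), and ST-HSC exceeded LT-HSC for Nkg7 alone (5.74% higher, 6.79% lower, 12.5% in either direction).

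In size, aged ST-HSC exceeded aged LT-HSC by 11.1 on the log2 scale for Mpo (SE 2.20, edgeR adjusted p = 0.000649), 6.82 for Elane (SE 2.16, 0.0207), 4.69 for Nkg7 (SE 0.29, 7.21e-11) and 3.72 for Fcgr3 (SE 0.88, 0.00264). Ctsg was at least 880-fold higher in aged ST-HSC than in aged LT-HSC, and Ms4a3 was higher by a ratio of 870 (95% interval of the counts 240 to 7190). The Elane call was lost without aged LT-HSC library 1 (adjusted p = 0.054), 2 (0.052) or 4 (0.052). Prtn3 differed by 0.58 (SE 0.48, edgeR adjusted p = 0.396), with 98.7 ± 62.0 CPM in aged ST-HSC and 66.3 ± 6.45 CPM in aged LT-HSC (SD, n = 4 each). Between aged MPP and aged LT-HSC the change was 12.5 for Mpo (SE 2.24, edgeR adjusted p = 9.87e-05) and 0.99 for Prtn3 (SE 0.48, 0.0867), and Prtn3 passed without aged MPP library 2 (0.043).

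Young MPP exceeded young ST-HSC by 4.64 for Mpo (SE 1.40, edgeR adjusted p = 0.0238), 8.31 for Ctsg (SE 2.03, 0.00855), 7.98 for Elane (SE 2.65, 0.0395), 1.40 for Nkg7 (SE 0.23, 0.000236) and 4.46 for Fcgr3 (SE 1.01, 0.00365). The Elane call was lost in 10 of 16 alternatives, among them the omission of any one young ST-HSC library (adjusted p from 0.08 to 0.096). The Nkg7, Ctsg and Fcgr3 calls held with any single library left out, and the number of genes called fell to 3 or 4 without young MPP library 1 or young ST-HSC library 2, 3 or 4. Young MPP exceeded young LT-HSC for Nkg7 alone (3.09, SE 0.25, edgeR adjusted p = 5.7e-09), where 18.3% of tested genes were called higher, 18.9% lower and 37.2% in either direction. Without young LT-HSC library 1, 6 of the 8 passed, among them Mpo (9.73, adjusted p = 3.1e-06), Ctsg (adjusted p = 0.0016) and Elane (9.02, adjusted p = 0.018), and without young MPP library 2, 3 passed, Nkg7, Ctsg (0.049) and Fcgr3 (0.021). Between young ST-HSC and young LT-HSC, Nkg7 was higher by 1.69 (SE 0.25, edgeR adjusted p = 5.45e-05). There the change of Mpo was -1.42 (adjusted p = 0.576) with all libraries and 5.09 (adjusted p = 0.0037) without young LT-HSC library 1, and Fcgr3, at -2.74 (adjusted p = 0.11), passed at -4.79 (0.036) without young ST-HSC library 4.

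The age differences were set against each other by interaction terms. Between ST-HSC and LT-HSC they differed for 7 of 8 genes, all but Prtn3, each with the more positive age difference in ST-HSC, where 2.39% of tested genes were called in that direction, 1.65% in the other and 4.05% in either. For Nkg7 the difference was 3.00 (SE 0.37, edgeR adjusted p = 7.61e-05), made of a rise in ST-HSC and a fall in LT-HSC, and for Fcgr3 it was 6.46 (SE 1.36, 0.0102); both held with any single library left out. With limma-voom Nkg7 alone was called (adjusted p = 0.17 for Fcgr3), and Elane lost its call in 16 of 25 alternatives. Without young LT-HSC library 1 those 2 were the only ones called, with Mpo at an adjusted p of 0.12, and 4 were called without any one of aged LT-HSC libraries 1, 2 and 3 or young ST-HSC libraries 2, 3 and 4. Between MPP and LT-HSC 2 of 8 differed, Nkg7 (2.08, SE 0.37, edgeR adjusted p = 0.00094) and Mpo (9.29, SE 2.57, 0.0277), where 4.89% of tested genes were called in that direction, 5.05% in the other and 9.93% in either. The Mpo call was lost without any one of the aged LT-HSC libraries (adjusted p from 0.051 to 0.055), young LT-HSC library 1 or young MPP library 2, leaving Nkg7 alone. Between MPP and ST-HSC no gene differed, where 0.465% of tested genes did in either direction (0.282% higher and 0.183% lower in MPP); 6 of 8 had an unadjusted p under 0.05, and DESeq2 and limma-voom called 0.

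The 8 genes did not vary as one block. After each group mean was subtracted, Elane correlated over the 24 libraries with Ms4a3 (Pearson r = 0.954), Ly6c2 (0.946) and Ctsg (0.894), and Mpo with Ctsg (0.937). Nkg7 correlated least with the others, at 0.369 with Fcgr3 and 0.670 with Mpo. These are descriptions on the log2(CPM + 1) scale over libraries that share depth and sort, with no test. Among other genes with a mean of at least 5 CPM, the one most like Elane (0.973) and Ms4a3 (0.963) was Sgms2, a sphingomyelin synthase, which was among the 5 most alike of 4 of the 8 genes. Sgms2 was at 31.5, 20.5, 27.9 and 0 CPM in aged ST-HSC, against 0 CPM in all 4 young ST-HSC libraries, and at 12.0 CPM in young LT-HSC library 1. The gene most like Mpo was Atp8b4 (0.949), a P-type ATPase of the flippase family, at 156, 51.5, 134 and 35.3 CPM in aged ST-HSC, against 18.5, 15.9, 15.3 and 18.9 CPM in young ST-HSC. Prtn3 was most like Alas1 (0.908), an enzyme of heme synthesis, Fcgr3 most like the complement gene C3 (0.852), and Nkg7 most like Pdcd4 (0.805), with no other member of the 8 among its 5 nearest.

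**Figure D4:**
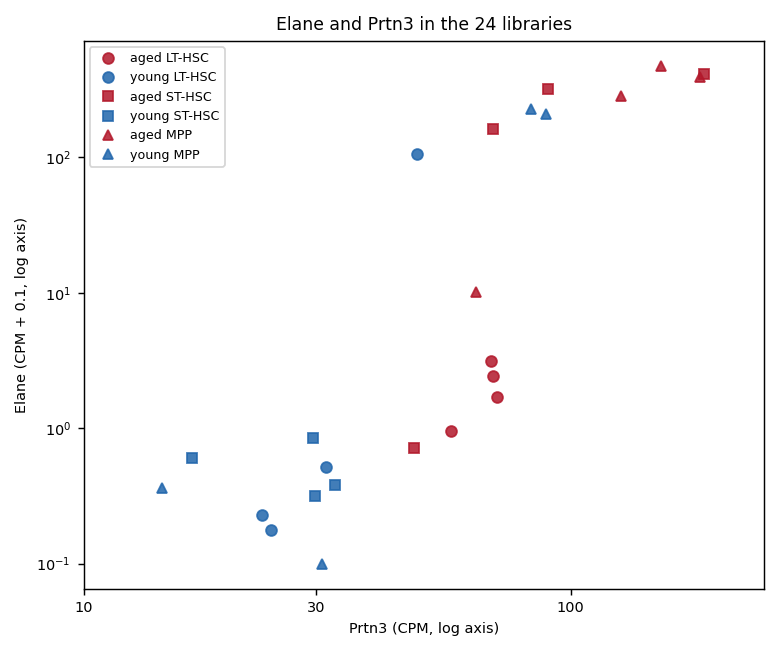
Elane (CPM + 0.1) against Prtn3 (CPM), both on log axes, in the 24 libraries, with colour for age and shape for population. In 9 libraries Elane is above 100 CPM, while Prtn3 stays between 14.5 and 188 CPM throughout.

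The neighbouring genes Elane and Prtn3 also varied together, at a Pearson r of 0.841 with group means subtracted, but Elane over a far wider range. In 9 libraries there were 2.14 to 3.55 Elane counts per Prtn3 count, namely aged ST-HSC 1 to 3, aged MPP 1, 3 and 4, young MPP 1 and 4 and young LT-HSC 1. In the other 15 the ratio was 0 to 0.156, with aged MPP library 2 the highest of these. These are ratios of raw counts not divided by transcript length, so they compare libraries and not the levels of the 2 genes. Prtn3 with little Elane was seen in all 4 aged LT-HSC libraries, which held 7, 23, 24 and 13 Elane counts beside 469, 681, 538 and 580 Prtn3 counts. A Prtn3 transcript of GENCODE M21 has an upstream exon that overlaps an exon of Plppr3 on the other strand, and without strand, reads of that stretch cannot be assigned. Plppr3, listed by its older symbol Lppr3, was at 181 to 200 CPM in aged LT-HSC, against 104 to 144 CPM in young LT-HSC, and at 206 to 256 CPM in aged ST-HSC, against 177 to 234 CPM in young ST-HSC; its part in the Prtn3 counts was not tested. Mpo overlaps Gm11505 on the other strand, which was not analysed here, and Ly6c2 has a close paralog, Ly6c1, whose level was at most 1.57 CPM in any library.

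Of 13 other genes of primary granules tested, 5 rose in aged ST-HSC (3.58% of all tested genes did) and 0 fell, and the median change was 0.49, against a median of 0.0098 over all tested genes. Serglycin (Srgn), the proteoglycan that packs granule proteins, rose by 0.56 (SE 0.11, edgeR adjusted p = 0.00266), the protease inhibitor Serpinb1a by 0.87 (SE 0.20, 0.0101) and the protease inhibitor Cst7 by 2.61 (SE 0.63, 0.0156). Prss57, a further serine protease of primary granules, rose by 1.47 (SE 0.39, 0.0301) and was at 57.5, 29.6, 32.2 and 12.6 CPM in aged ST-HSC, against 16.0, 13.1, 9.09 and 9.59 CPM in young ST-HSC. In aged MPP 4 of the 13 rose (Man2b1, Srgn, Prss57 and Serpinb1a), against 5.53% of all tested genes, and 0 fell, with a median of 0.43. In aged LT-HSC Srgn and Cd63 rose and Man2b1 and Gusb fell, where 9.98% of all tested genes rose and 8.87% fell, and the median was 0.011, against 0.0022 over all tested genes.

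Of 23 tested genes of granulocyte and monocyte progenitors, 8 rose in aged ST-HSC and 0 fell, with a median of 1.02, where 3.58% of all tested genes rose and 2.21% fell. They included Clec12a, a lectin receptor of myeloid cells, at 19.4, 16.2, 30.8 and 5.80 CPM in aged ST-HSC, against 0.751, 0.437, 1.80 and 2.12 CPM in young ST-HSC (3.80, SE 0.69, edgeR adjusted p = 0.00254). Fcgr2b, the inhibitory IgG receptor, rose by 1.83 (SE 0.43, 0.0132) and Cebpe, a transcription factor of granule genes, by 3.77 (SE 1.01, 0.0252). Csf1r, the receptor of macrophage colony-stimulating factor, rose by 2.74 (SE 0.66, 0.019) and was at 9.85, 34.9, 6.81 and 85.8 CPM in aged ST-HSC, against 3.38, 3.38, 7.01 and 6.60 CPM in young ST-HSC, so that its highest library was the one in which the granule genes were lowest. In aged MPP 6 of the 23 rose, against 5.53% of all tested genes, among them Irf8, a transcription factor of monocyte and dendritic cell fate (1.74, SE 0.31, edgeR adjusted p = 0.000968; 188 ± 32.7 CPM in aged MPP and 56.1 ± 27.0 CPM in young MPP, SD, n = 4 each). In aged LT-HSC 1 rose (Hk3) and 3 fell (Cd34, Fam46a and Clec12a), where 9.98% of all tested genes rose and 8.87% fell.

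Of 16 myeloid transcription factors, 2 rose in aged ST-HSC (Zeb2 and Cebpe), 5 rose in aged MPP, and in aged LT-HSC 5 rose and 1 fell. Over all tested genes 5.79% were called in either direction in ST-HSC, 9.79% in MPP and 18.9% in LT-HSC. Cebpa and Spi1, which encode C/EBP alpha and PU.1, regulators of granulocyte and monocyte genes, changed by 0.38 (SE 0.29, edgeR adjusted p = 0.513) and 0.26 (SE 0.15, 0.359) between aged and young ST-HSC. Cebpa was at 33.5, 16.7, 37.1 and 19.4 CPM in aged ST-HSC, against 15.5, 19.0, 24.3 and 23.4 CPM in young ST-HSC, with the groups overlapping. Of 11 receptors of myeloid growth factors 1 rose in aged ST-HSC (Csf1r) and 0 fell, where 3.58% of all tested genes rose and 2.21% fell. In aged LT-HSC, where 18.9% of all tested genes were called, 2 rose and 3 fell, among them Csf2rb, the shared beta chain of the GM-CSF receptor (-1.38, SE 0.16, edgeR adjusted p = 1.03e-06), and Flt3 (-1.17, SE 0.15, 3.16e-06).

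**Figure D5:**
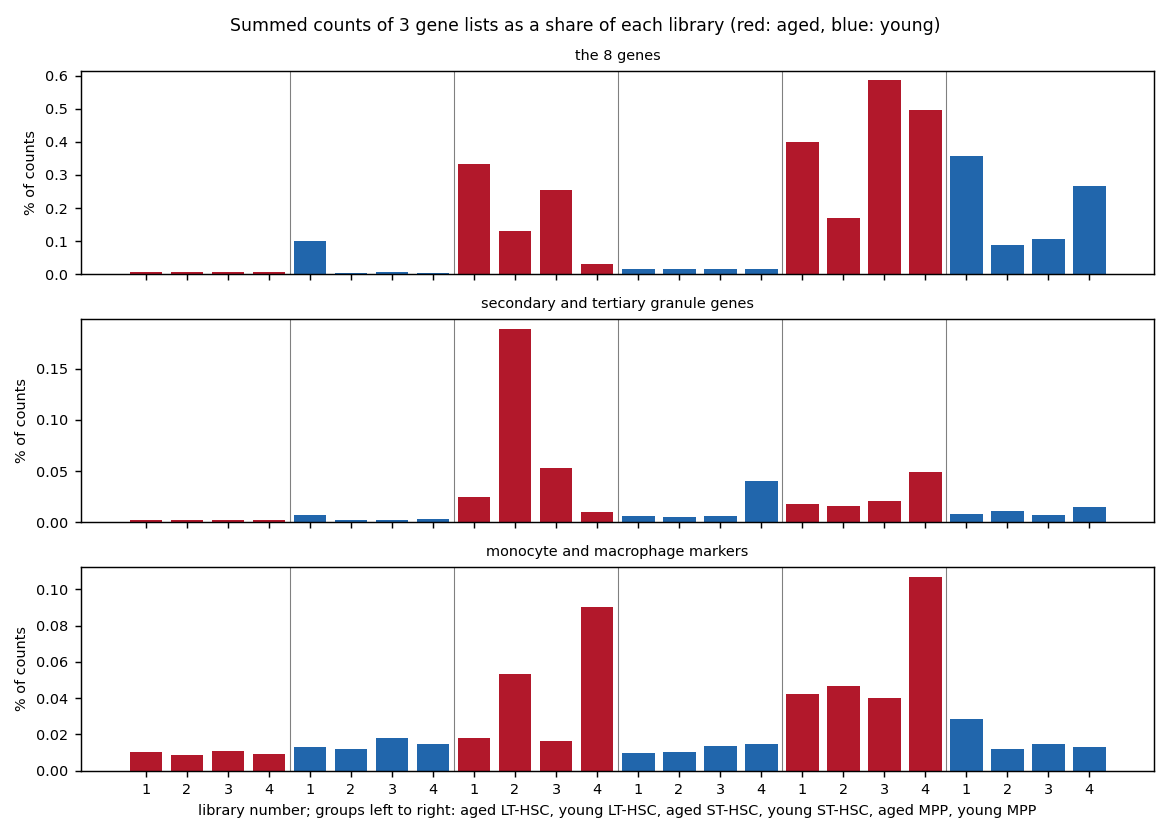
Summed counts of the 8 genes, of 17 secondary and tertiary granule genes and of 22 monocyte and macrophage markers, each as a percent of the counts of a library; bars are libraries, red for aged and blue for young. The highest bar for secondary and tertiary granule genes is aged ST-HSC library 2, at 0.189%, where the 8 genes take up 0.132%.

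Genes of later granules and of monocytes were read beside these values. Mature cells carry them, and the lineage-negative gate is meant to remove such cells. The 8 genes took up 0.334%, 0.132%, 0.253% and 0.0312% of all reads counted in aged ST-HSC 1 to 4, against 0.0148% to 0.0162% in young ST-HSC. Secondary and tertiary granule genes took up 0.0244%, 0.189%, 0.0530% and 0.0104% in aged ST-HSC, against 0.00568% to 0.0404% in young ST-HSC, so the order of the aged libraries was another one. Of 13 such genes tested, 5 rose in aged ST-HSC, against 3.58% of all tested genes, and 0 fell, with a median of 3.15. Ltb4r1, a leukotriene B4 receptor, was at 10.4, 7.26, 7.47 and 2.44 CPM in aged ST-HSC, against 0.375, 0.437, 2.18 and 2.12 CPM in young ST-HSC (2.41, SE 0.51, edgeR adjusted p = 0.00505). Cybb, the oxidase subunit gp91-phox, was at 8.98, 72.0, 10.4 and 27.4 CPM in aged ST-HSC, against 0, 0, 1.42 and 7.72 CPM in young ST-HSC (3.73, SE 1.03, edgeR adjusted p = 0.0385). For both genes all 4 aged libraries lay above the young ones. Camp, a secondary granule peptide, rose, with 0.953, 31.5, 1.07 and 1.02 CPM in aged ST-HSC, against 0.751, 0.109, 0.758 and 0.871 CPM in young ST-HSC, and Lcn2 was at 0.159, 51.6, 3.34 and 0 CPM in aged ST-HSC, against 0, 0, 0 and 0.249 CPM in young ST-HSC. Camp and Lcn2 were highest in library 2. Ltf, a defining gene of secondary granules, was at 0.0794, 176, 0 and 0.102 CPM in aged ST-HSC, against at most 0.109 CPM in young ST-HSC. Library 2 thus held secondary granule transcripts, whereas in aged library 1, where the primary granule genes were highest, Ltf and Lcn2 were near 0. The reverse was seen in young ST-HSC library 4, where the neutrophil genes S100a8 and S100a9 were at 142 and 79.9 CPM while Elane was at 0.498 CPM and Ctsg at 0.

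Monocyte and macrophage markers took up 0.0182%, 0.0531%, 0.0162% and 0.0904% of counts in aged ST-HSC, against 0.00973% to 0.0149% in young ST-HSC, and 0.0403% to 0.107% in aged MPP, against 0.0118% to 0.0282% in young MPP. Their highest aged ST-HSC library was library 4, in which Mpo was lowest and Fcgr3 was at 13.8 CPM. Of 20 tested, 4 rose in aged ST-HSC (Fcgr4, Csf1r, Lgmn and Vcam1), 5 rose in aged MPP and 4 fell in aged LT-HSC, where 3.58%, 5.53% and 8.87% of all tested genes were called in those directions. Lgmn, the protease legumain, averaged 41.2 ± 38.9 CPM in aged ST-HSC and 5.63 ± 1.76 CPM in young ST-HSC, and Vcam1, an adhesion molecule of marrow macrophages and stroma, 92.1 ± 75.8 CPM in aged ST-HSC and 6.22 ± 4.44 CPM in young ST-HSC (SD, n = 4 each). T and NK cell markers, looked at because of Nkg7, took up 0.00211% to 0.00806% of counts in aged ST-HSC, against 0.00307% to 0.00555% in young ST-HSC, and 0 of 5 tested were called by edgeR there. In LT-HSC, where Nkg7 fell, they took up 0.00818% to 0.0124% of counts in aged libraries, against 0.00239% to 0.00304% in young ones. The part of these cell types in the age differences of the 8 genes was not tested.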

How the data were processed

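Bulk RNA-seq was measured in 24 libraries, grouped by the age and cell type labels. The tools named in the submitters' processing notes are featureCounts, HISAT2 and Trim Galore, and the build is mm10; the sources used here state neither their versions nor the annotation or strand option. Per the labels' protocols the libraries were made with not-so-random primers and a Nextera XT kit, which marks no strand and adds no molecular identifiers. The deposited values are raw counts per gene symbol, not normalized by the authors, judged from the values; 27 symbols had been turned into dates and were passed over in naming.

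Counts passing filterByExpr were scaled with TMM and fitted with edgeR 4.0.16 in R 4.3.3, by a robust quasi-likelihood model with one mean per group over all 24 libraries (18 residual degrees of freedom, common dispersion 0.0454). The 12 contrasts were two-sided, with Benjamini-Hochberg adjustment over 14205 genes and a threshold of 0.05. The procedure was tested on simulated data. Limits for a count of 0 use 3 counts, and intervals cover counting error only. The members and lists were chosen with earlier results of these data known. The 8 genes are named in every comparison, and from each other list up to 4 called genes of smallest p in the age comparisons, plus genes singled out after their values were seen (Prss57, Cebpa, Spi1, Ltf, S100a8, S100a9, Ly6c1, Lppr3). A gene that this rule takes is not reported here. The genes most alike were the 5 of highest Pearson r among those of at least 5 CPM. Alternatives were other size factors, total counts, no filter, DESeq2 1.42.0, limma-voom (limma 3.58.1), only the groups compared, a replicate block, and libraries left out.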

Additional observations from a re-analysis of the deposited data

Results flagged for a closer look

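A library far from the other 3 of its group was seen in 9 of 48 combinations of gene and group. Chance flags about 1 in 20 groups of independent, normally spread values, which these are not, so the 2 numbers are not to be set against each other. Of these 9, 5 were young LT-HSC library 1, with Mpo at 682 CPM, Ctsg at 46.7, Elane at 106, Ms4a3 at 14.5 and Ly6c2 at 21.6 CPM. In aged LT-HSC Prtn3 was set apart in library 1 by a lower value of 56.7 CPM, and Ms4a3 at 0.255 CPM in library 3 and Ly6c2 at 0.121 CPM in library 1 rest on 2 reads and 1 read beside libraries with none. Fcgr3 stood apart at 1.24 CPM in young ST-HSC library 4.

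The age difference itself differed between ST-HSC and LT-HSC, by an edgeR interaction test, for Mpo (12.6 on the log2 scale), Ctsg (17.6), Elane (12.7), Ms4a3 (13.2), Ly6c2 (15.3), Nkg7 (3.00) and Fcgr3 (6.46). Between MPP and LT-HSC it differed for Mpo (9.29) and Nkg7 (2.08). The sizes for Ctsg, Ms4a3 and Ly6c2 depend on the prior count, since aged LT-HSC held 0, 2 and 1 reads of them. Without young LT-HSC library 1 the differences of Nkg7 and Fcgr3 between ST-HSC and LT-HSC were still called and the other 5 were not.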

How the results depend on the processing

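Numbers of the 8 genes called, by setting, are given against the reported number. With limma-voom they were 1 (reported 2) for age in LT-HSC, 1 (6) for age in ST-HSC, 2 (0) for age in MPP, 2 (7) for aged MPP against LT-HSC, 2 (1) for young MPP against LT-HSC, 3 (0) for aged MPP against ST-HSC, 2 (7) for young MPP against ST-HSC, 2 (7) for aged ST-HSC against LT-HSC, 1 (7) for the ST-HSC and LT-HSC interaction and 1 (2) for the MPP and LT-HSC interaction. With DESeq2 they were 5 (2) for age in LT-HSC, 8 (6) for age in ST-HSC and 2 (1) for young MPP against LT-HSC. They were 5 (1) for young ST-HSC against LT-HSC and 5 (2) for the MPP and LT-HSC interaction. Of the 5 for young ST-HSC against LT-HSC, 1 was higher and 4 were lower (Ctsg, Elane, Ly6c2 and Fcgr3). The reported 1, Nkg7, was higher. With only the groups compared the numbers were 4 (6) for age in ST-HSC, 1 (0) for age in MPP and 3 (7) for young MPP against ST-HSC. In that last comparison Elane, Ms4a3 and Ly6c2 did not pass the count filter of this fit and were not tested. Among those tested, Fcgr3 lost its call (edgeR adjusted p = 0.052). The numbers were 2 (1) for young ST-HSC against LT-HSC, with Nkg7 higher and Fcgr3 lower, and 1 (2) for the MPP and LT-HSC interaction. An earlier account of these data sets 3 libraries apart (young LT-HSC 1, aged ST-HSC 2 and 3). Without them the numbers were 1 (2) for age in LT-HSC, 5 (6) for age in ST-HSC and 6 (1) for young MPP against LT-HSC. They were 2 (1) for young ST-HSC against LT-HSC, with Nkg7 and Mpo higher. The ST-HSC and LT-HSC interaction gave 2 (7) and the MPP and LT-HSC interaction 1 (2). Leaving out 1 library at a time gave 1 to 2 for age in LT-HSC, 2 to 7 for age in ST-HSC, 0 for age in MPP, 7 to 8 for aged and 1 to 6 for young MPP against LT-HSC, 0 for aged and 3 to 7 for young MPP against ST-HSC, 6 to 7 for aged and 1 to 2 for young ST-HSC against LT-HSC, 2 to 7 for the ST-HSC and LT-HSC interaction and 1 to 2 for the MPP and LT-HSC interaction. Size factors, total counts and the count filter moved no number by more than 1.5 times. For age in LT-HSC, the fit of only the groups compared called 1 gene higher, Prtn3, and 1 lower, Nkg7, against 0 and 2 in the reported fit. Mpo did not pass the count filter of that fit and was not tested in it.

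Library numbers were not used as pairs. Deviations of same-numbered libraries of one age correlated from -0.0584 to 0.177. Differently numbered libraries were not compared, so these values cannot show whether same-numbered libraries came from one mouse. A replicate block gave 3 (1) for young MPP against LT-HSC and 2 (1) for young ST-HSC against LT-HSC. It gave 1 (2) for the MPP and LT-HSC interaction and 7 (6) for age in ST-HSC. The block within age gave 3 and 2 for the first 2 of these comparisons. In young ST-HSC against LT-HSC, the gene added by either block was Fcgr3, called lower.

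Of the results for single genes under alternatives, 1578 kept direction and call, 133 lost a call, 47 gained one and 26 changed direction. None of the 26 was called in the reported fit. Mpo in young ST-HSC against LT-HSC was called in the changed direction without young LT-HSC library 1 (edgeR adjusted p = 0.0037) and without the 3 libraries (0.007). Leaving out 1 library at a time gave log2 values from -4.17 to 3.23 for Elane with age in LT-HSC and from -0.0299 to 0.878 for Elane in aged MPP against ST-HSC. For young ST-HSC against LT-HSC it gave -1.85 to 5.09 for Mpo, -6.11 to 4.44 for Ctsg, -6.36 to 1.05 for Elane, -0.349 to 0.0549 for Prtn3, -5.40 to 0.424 for Ms4a3 and -5.89 to 1.43 for Ly6c2, the positive end being without young LT-HSC library 1. For the MPP and LT-HSC interaction it gave -1.82 to 5.77 for Elane and -0.10 to 0.576 for Prtn3. Without the 3 libraries the values were 3.24 for Elane with age in LT-HSC, 5.10 for Mpo, 4.46 for Ctsg, 1.05 for Elane, 0.0639 for Prtn3, 0.433 for Ms4a3 and 1.44 for Ly6c2 in young ST-HSC against LT-HSC, and -1.84 for Elane and -0.0720 for Prtn3 in the interaction. With limma-voom Elane was at 1.15 with age in LT-HSC, and Mpo at 3.58 and Ctsg at 0.0593 in young ST-HSC against LT-HSC. With a replicate block Elane was at -0.226 in aged MPP against ST-HSC, and Mpo at 0.357, or 1.52 within age, in young ST-HSC against LT-HSC. The cause was not tested. Without young LT-HSC library 1 Ctsg has no value for age in LT-HSC, as every count is 0. Depth limits Ctsg, Ms4a3 and Ly6c2 in aged LT-HSC and young ST-HSC, where a group held 0 to 10 reads.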
